A study of Danio rerio with 10 samples.

Results

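The genes described here are the zebrafish proteasome genes on the array, that is every gene whose symbol begins with *psma*, *psmb*, *psmc*, *psmd*, *psme*, *psmf* or *psmg* followed by a digit, measured by probe sets that the array annotation assigns to 1 gene symbol only. The rule found 54 genes and 59 probe sets, of 19260 genes with 1 symbol and 75212 probe sets in all, and each gene is represented by its probe set with the highest mean over the 10 arrays. Of the 54 genes, 52 encode subunits, regulators or assembly chaperones of the proteasome. The other 2, *psmc3ip* and *psme3ip1*, carry the name of a subunit without encoding one: the protein of *psmc3ip* acts in meiotic recombination, and *psme3ip1* is named for binding an activator of the core.

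RNA was taken from pools of whole embryos at 48 hpf (2 dpf), and 100 ng of it was put on each array. Wildtype embryos were either uninjected (2 arrays) or homozygous wildtype siblings of the mutants (2 arrays). Morphants were wildtype embryos injected with T-MO, a morpholino that blocks translation of *islet2a* mRNA (3 arrays), and mutants were homozygous for a TALEN-induced frameshift deletion in *islet2a* (3 arrays), 1 allele only. No array came from embryos injected with a control morpholino (0 arrays), so the effects of injection and of knockdown cannot be told apart. Both kinds of wildtype were joined as the wildtype group (n = 4), so the morphant and the mutant comparisons share their controls. Nothing in the labels says that replicate pools were laid by different parents, and the p-values therefore reflect no more than the scatter of these arrays, which may be technical.

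Values are log2 signals after robust multi-array averaging, in which every array has nearly the same distribution, with array medians of 4.92 to 4.96. A difference of 1 is therefore a 2-fold difference in signal of the same probe set, and levels are compared only within a probe set. Arrays of the same group correlated at 0.983 to 0.992 over probe sets (12 pairs) and arrays of different groups at 0.972 to 0.988 (33 pairs). Morphant 2 was the highest array for 3260 genes and the lowest for 3147, the largest numbers of the 10 arrays, and several values below are therefore also given without it. The targeted gene, named *isl2a* on the array, had values of 8.51 to 8.61 in wildtype, 9.79 to 9.96 in morphants and 8.95 to 9.13 in mutants. A probe set for the mRNA checks neither a block of translation nor a small deletion. By their means over the arrays, markers of muscle, neurons, blood, epidermis, pigment and notochord lay above the array medians, as whole embryos should give. Both markers of the exocrine pancreas (*prss1*, *ela2*) did not, nor did *ttr* of liver and yolk, whereas *apoa2* of liver and yolk did.

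The proteasome is the protease that degrades proteins tagged with ubiquitin. Its core is a barrel of stacked rings: the outer rings are made of alpha subunits (*psma* genes), which gate the entry, and the inner rings of beta subunits (*psmb* genes), of which those of *psmb5*, *psmb6* and *psmb7* carry the active sites. The regulatory particle that caps the barrel has a base with AAA ATPases that unfold substrates (*psmc* genes) and non-ATPase subunits of base and lid that bind and remove ubiquitin (*psmd* genes). In immune cells, and under interferon gamma, the active beta subunits are replaced by the inducible ones of *psmb8*, *psmb9* and *psmb10* to form the immunoproteasome, and the PA28 activator of *psme1* and *psme2* takes the place of the cap. These functions are known mainly from yeast and mammals. By class, the 54 genes comprise 9 of the alpha ring, 7 constitutive and 6 inducible or special beta genes, 7 base ATPases, 12 non-ATPase subunits of base and lid, 3 chaperones of base assembly, 3 activators, 1 inhibitor, 4 chaperones of core assembly and the 2 genes that share only the name. In the RefSeq annotation of the GRCz12tu assembly, *psmb13a*, *psmb8a*, *psmb12* and *psmb9a* lie next to each other in this order, and *psmb11a* is the neighbour of *psmb5*.

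Proteasome transcripts differed little between the groups. In morphants against wildtype, none of the 54 genes passed the test (limma, Benjamini-Hochberg adjusted p below 0.05 over all 75212 probe sets), where 5.17% of all probe sets and 9.94% of the genes with 1 symbol did. The lowest adjusted p among the probe sets that represent the 54 genes was 0.128 (*psmb10*). An unadjusted p below 0.05 was found for 10 genes (18.5%), beside 29.0% of all genes. In mutants against wildtype, none passed either, beside a background of 0.338% of probe sets and 0.306% of genes. The lowest adjusted p was 0.077 (*psmc3ip*), and 8 genes (14.8%) had an unadjusted p below 0.05, as 17.6% of all genes had. Between morphants and mutants, 4 of 54 passed (7.41%), where 13.6% of probe sets and 23.1% of genes did. Higher in morphants were *psmd11b*, *psmb6* and *psmb7* (13.5% of genes were called in this direction), and *psmb10* was lower (9.63% of genes). None of the 4 differed by 2-fold, a size that, with the test, 2.98% of genes reached. Tissue markers differed between the same groups: 9 of 27 passed (33.3%), among them *cryaa* of the lens, 4.96-fold lower in morphants, *elavl4* of neurons and *col9a1a* of the notochord (1.76-fold and 1.87-fold lower), *ctslb* and *he1.1* of the hatching gland (2.45-fold and 2.26-fold higher) and *cmlc1* of the heart (1.78-fold higher). The other measured markers of lens (*cryba1b*), neurons (*elavl3* and *snap25a*) and notochord (*col2a1a*) did not pass. The part of the tissue markers in the proteasome values was not tested.

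The median over the 54 genes was close to that of all genes in morphants against wildtype, and slightly apart from it in the comparisons that involve mutants. The median log2 change was -0.02 in morphants against wildtype, -0.10 in mutants against wildtype and 0.08 in morphants against mutants, beside -0.005, -0.007 and -0.001 over the 19260 genes. The 95% confidence interval lay within 2-fold in either direction for 53, 52 and 52 of the 54 genes in these comparisons, and within 1.5-fold for 48, 49 and 40 of them. Over all genes, 74.8%, 82.7% and 62.1% had an interval within 1.5-fold, against 88.9%, 90.7% and 74.1% of the proteasome genes. The median residual standard deviation of the proteasome genes was 0.137, and that of all genes 0.144. The groups did not overlap for 6 of 54 genes in morphants against wildtype (11.1%, where 28.1% of genes did not), for 9 in mutants against wildtype (16.7%, where 16.8% of genes did not) and for 17 in morphants against mutants (31.5%, where 48.6% of genes did not).

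**Figure D1:**
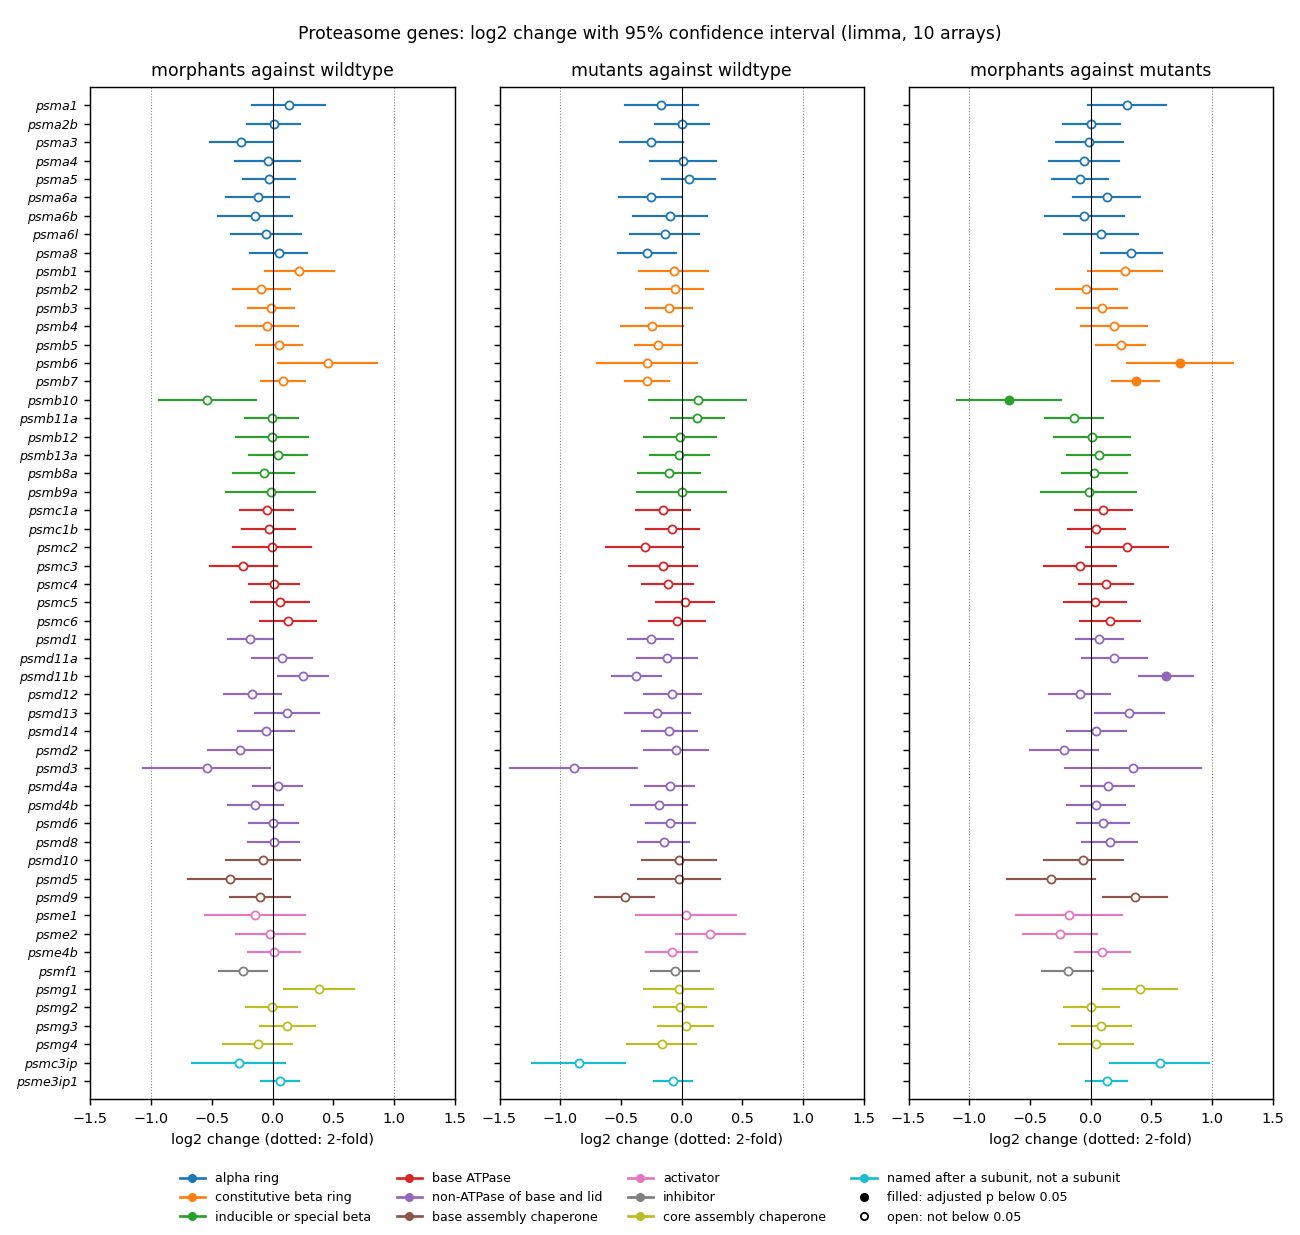
Log2 change of each of the 54 genes (points) with its 95% confidence interval (lines) in morphants against wildtype, mutants against wildtype and morphants against mutants, coloured by class, with dotted lines at 2-fold. Filled points, 4 in the panel of morphants against mutants and none in the other panels, passed the test, and all points lie inside the dotted lines.

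The constitutive core, base and lid, 35 genes in all, were on balance slightly lower in mutants. Of these, 31 had a negative log2 change in mutants against wildtype, with a median of -0.14, and 51.5% of all genes had one. All 7 constitutive beta genes (median -0.20) and all 12 non-ATPase genes of base and lid (median -0.13) were among them, with 6 of 9 alpha ring genes and 6 of 7 base ATPases. Of the alpha ring genes, *psma6l* counts here by its brightest probe set (-0.14), and its dimmer probe sets had changes of 0.52 and 0.51. Of the 54 genes together, 44 were on the lower side. No single gene of the 35 passed the test in this comparison, and the values moved with single arrays as well as with the group. Centred on each gene's mean over the 10 arrays, the median of the 35 genes was 0.02 in mutant 1, -0.185 in mutant 2 and -0.12 in mutant 3. In wildtype it was 0.11 and 0.004 in the uninjected arrays and 0.14 and -0.07 in the sibling arrays, and in morphants 0.02, 0.04 and 0.01.

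Thus mutant 1 lay among the wildtype arrays, and a wildtype array, sibling 2, lay below mutant 1. Mutant 2 was the lowest array for 19 of the 35 genes, and sibling 1 the highest for 17. The arrays of the same kind of wildtype differed by as much: uninjected 1 was above uninjected 2 for 42 of the 54 genes (8648 of 19260 over all genes), and sibling 1 above sibling 2 for 47 (9556 over all genes). Without mutant 2, 29 of the 35 were on the lower side with a median of -0.08. Without sibling 1, 30 were, with a median of -0.09. The median over all 54 genes then came to -0.08 and -0.06. Other omissions went the other way. Without mutant 1, 34 of the 35 were on the lower side (median -0.20), and without sibling 2 or uninjected 2, 33 were (medians -0.165 and -0.147). In mutants against siblings alone, 33 of the 35 were on the lower side (median -0.12), beside 9741 of 19260 genes. Markers of dividing cells moved in the same direction, with all 7 of 7 measured on the lower side in mutants (median -0.45, none past the test), mean levels of 8.29 to 8.69 in mutants, 8.57 to 8.73 in morphants and 8.81 to 9.05 in wildtype, and their part in the proteasome values was not tested. In morphants against wildtype these 7 were also all on the lower side (median -0.22), while the median of the 35 proteasome genes was -0.01. Of the 7, *cdk1* was past the test there (1.42-fold lower), 14.3% of the list beside 9.94% of all genes. The adjusted p of *cdk1* was below 0.05 in 9 of 23 alternative analyses. Between morphants and mutants, 5 of the 7 were higher in morphants (median 0.15), and the median of the 35 proteasome genes was 0.10. *plk1* and *birc5a* passed there (1.36-fold and 1.44-fold higher), 28.6% of the list beside 23.1% of all genes. Their adjusted p was below 0.05 in 11 and 15 of 21 alternative analyses. In RNA of whole embryos, fewer cells of a type and less RNA per cell cannot be told apart.

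**Figure D2:**
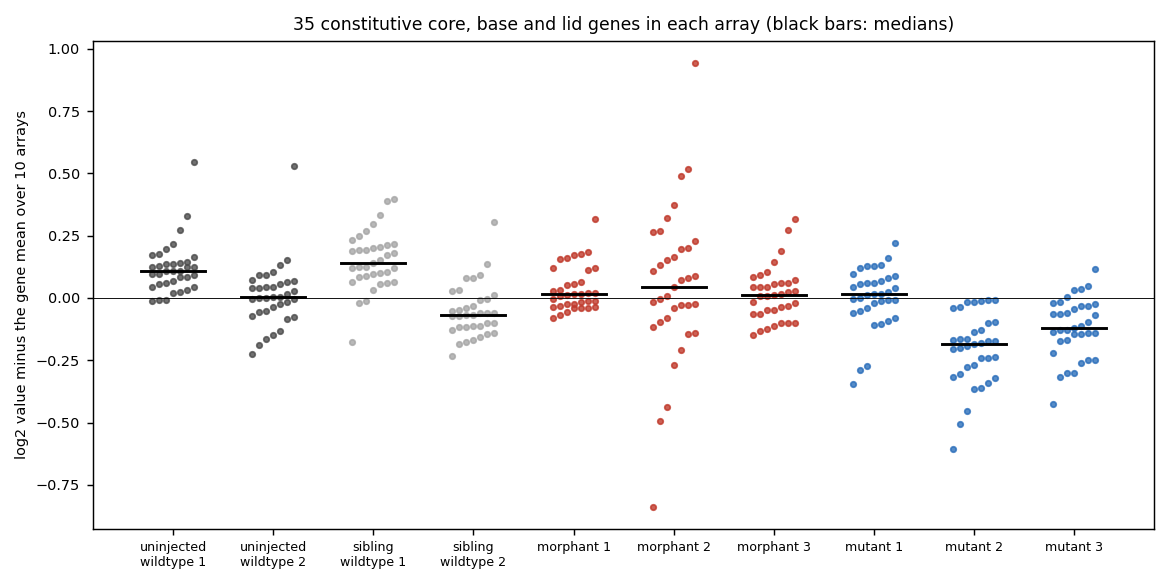
Log2 value minus the gene's mean over 10 arrays (vertical axis) for the 35 constitutive core, base and lid genes (points) in each array, with the median of the array as a black bar. The medians of mutants 2 and 3 are the lowest at -0.185 and -0.12, that of mutant 1 is 0.02, and the points of morphant 2 have the widest range.

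Among the alpha ring genes, none passed the test in any comparison, and their log2 changes ran from -0.26 to 0.13 in morphants against wildtype, from -0.29 to 0.06 in mutants against wildtype and from -0.09 to 0.34 in morphants against mutants. The highest of these, *psma8*, had 9.26 and 9.25 in uninjected wildtype, 9.41 and 9.13 in siblings, 9.31, 9.34 and 9.28 in morphants and 9.21, 8.85 and 8.87 in mutants. Mutants 2 and 3, but not mutant 1, lay below all other arrays for this gene, and the difference of 0.34 between morphants and mutants had an adjusted p of 0.080, and passed without mutant 1. *psma5* showed how close the values of a core gene were: 10.01 and 9.91 in uninjected wildtype, 10.20 and 9.83 in siblings, 9.94, 9.97 and 9.96 in morphants and 10.13, 9.98 and 10.03 in mutants. It was among the 4 largest positive changes of mutants against wildtype although its change was only 0.06 (95% confidence interval -0.16 to 0.28).

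*psma6l*, related by name to *psma6a* and *psma6b*, depended on the probe set chosen. Its brightest probe set gave 5.61 and 5.64 in uninjected wildtype, 5.31 and 5.62 in siblings, 5.44, 5.57 and 5.45 in morphants and 5.49, 5.12 and 5.60 in mutants, with no difference between morphants and mutants past the test (0.08, adjusted p = 0.744). The next brightest gave 5.25 and 5.15 in uninjected wildtype, 5.39 and 5.34 in siblings, 5.18, 4.90 and 5.28 in morphants and 5.45, 5.96 and 6.0 in mutants. There, every mutant array lay above all other arrays, and morphants were lower than mutants by 1.61-fold (log2 change -0.68, adjusted p = 0.019), as they were by 1.57-fold in the dimmest (-0.66, adjusted p = 0.019). Against wildtype, mutants had changes of 0.52 and 0.51 in these 2 probe sets, neither past the test (adjusted p = 0.169 and 0.167). Of the 3 other genes with more than 1 probe set (*psmb4*, *psmc3* and *psmd2*), *psmc3* had changes of opposite sign between morphants and mutants (-0.09 and 0.27), and none of their probe sets passed.

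**Figure D3:**
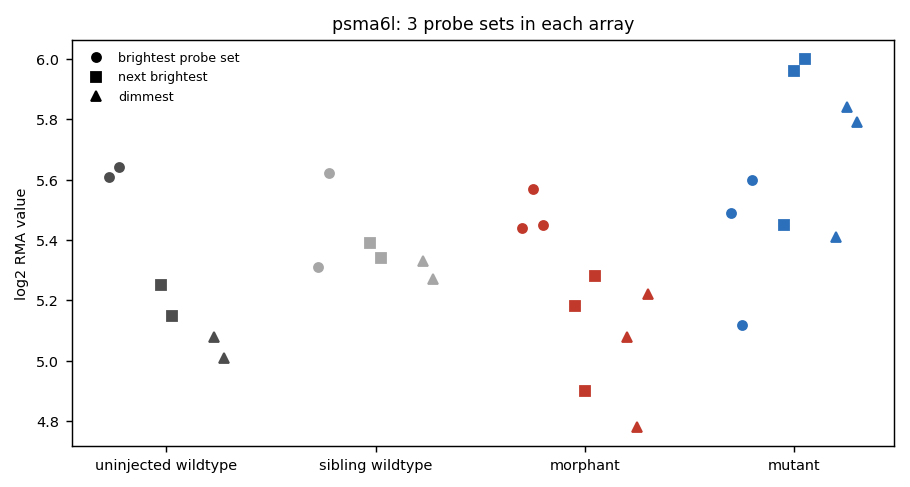
Log2 value of the 3 probe sets of *psma6l* (circles, squares and triangles) in each array by group. In the squares and triangles the 3 mutant arrays lie above every other array, from 5.41 upwards, and in the circles morphants and mutants overlap.

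The 7 genes of the constitutive beta ring held 2 of the 4 calls between morphants and mutants, where 23.1% of all genes were called. *psmb6*, which encodes the subunit with caspase-like activity, had 8.70 and 8.65 in uninjected wildtype, 8.80 and 8.48 in siblings, 8.87, 9.65 and 8.81 in morphants and 8.42, 8.26 and 8.45 in mutants. All morphants lay above and all mutants below the wildtype arrays, and morphant 2 was far above the other 2 morphants. Morphants exceeded mutants by 1.66-fold (log2 change 0.74, SE 0.198, adjusted p = 0.035), and by 0.47 without morphant 2, which still passed, whereas the call was lost without any 1 of the 3 mutants (adjusted p = 0.069 to 0.113). Against wildtype, the changes of *psmb6* were 0.45 in morphants (adjusted p = 0.217, and 0.18 without morphant 2) and -0.28 in mutants (adjusted p = 0.563).

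*psmb7*, which encodes the subunit with trypsin-like activity, is named because it passed and was not among the largest changes, a choice made after its values were seen. Its values were 8.61 and 8.70 in uninjected wildtype, 8.63 and 8.55 in siblings, 8.72, 8.76 and 8.65 in morphants and 8.46, 8.25 and 8.31 in mutants. The mutants lay below all wildtype arrays and the morphants overlapped the wildtype range, and morphants exceeded mutants by 1.29-fold (0.37, SE 0.087, adjusted p = 0.020). The call was lost without morphant 1, morphant 2, mutant 2 or mutant 3 (adjusted p = 0.062 to 0.077). The third active-site gene, *psmb5* (chymotrypsin-like activity), differed by 0.25 with an adjusted p of 0.108. *psmb1*, a structural subunit, had 10.03 and 9.83 in uninjected wildtype, 10.06 and 9.86 in siblings, 10.48 in morphant 2, at most 10.01 in the other 2 morphants and 9.98, 9.80 and 9.86 in mutants. Its change in morphants against wildtype was 0.22 (adjusted p = 0.405), and 0.06 without morphant 2.

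The lowest adjusted p belonged to a lid gene. *psmd11b*, 1 of 2 zebrafish genes for the lid subunit Rpn6 that links lid, base and core, had 9.20 and 9.17 in uninjected wildtype, 9.05 and 9.01 in siblings, 9.39, 9.33 and 9.34 in morphants and 8.80, 8.56 and 8.85 in mutants. The 3 groups were separate, with wildtype in between, and the uninjected arrays lay above the siblings. Morphants exceeded mutants by 1.54-fold (0.62, SE 0.098, adjusted p = 0.0035), and this call held without each of the 10 arrays in turn. Against wildtype the changes were 0.25 in morphants (adjusted p = 0.174) and -0.37 in mutants (adjusted p = 0.128). Its paralog *psmd11a* had a change of 0.20 between morphants and mutants (adjusted p = 0.328), and whether paralogs share signal on the array was not tested.

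*psmd3*, a lid scaffold subunit, had the largest negative change of the 54 genes in both comparisons with wildtype, and the largest residual standard deviation (0.355). Its values were 11.04 and 11.02 in uninjected wildtype, 10.83 and 10.80 in siblings, 10.68, 9.66 and 10.81 in morphants and 10.15, 9.89 and 10.07 in mutants. Every mutant lay below every wildtype array, by 1.85-fold in the means (-0.89, SE 0.235, adjusted p = 0.148), and morphant 2 lay below the mutants. Without morphant 2, which enters the shared variance, the same mutant change had an adjusted p of 0.015, the difference between morphants and mutants went from 0.35 (adjusted p = 0.416) to 0.71 (adjusted p = 0.011), and the change in morphants against wildtype from -0.54 (adjusted p = 0.246) to -0.18 (adjusted p = 0.506). *psmd2*, for a scaffold subunit of the base, had 11.56 and 11.47 in uninjected wildtype, 11.57 and 11.51 in siblings, 11.42, 10.94 and 11.42 in morphants and 11.55, 11.42 and 11.47 in mutants, with morphant 2 again lowest and no call (-0.22 between morphants and mutants, adjusted p = 0.294, and -0.06 without morphant 2). All morphants lay below all wildtype arrays (-0.27, adjusted p = 0.251). In its dimmer probe set, morphants (10.54, 10.11 and 10.56) lay below all wildtype and all mutant arrays. The changes there were -0.42 against wildtype (adjusted p = 0.090) and -0.33 against mutants (adjusted p = 0.138).

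The 7 base ATPases had log2 changes of -0.24 to 0.12 in morphants against wildtype, -0.31 to 0.03 in mutants against wildtype and -0.09 to 0.30 in morphants against mutants, with a lowest adjusted p of 0.239. The extremes were *psmc3*, *psmc6*, *psmc2* and *psmc5*. The deubiquitinase gene *psmd14* and the ubiquitin receptor genes *psmd4a* and *psmd4b* had changes between -0.19 and 0.14 over the 3 comparisons.

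**Figure D4:**
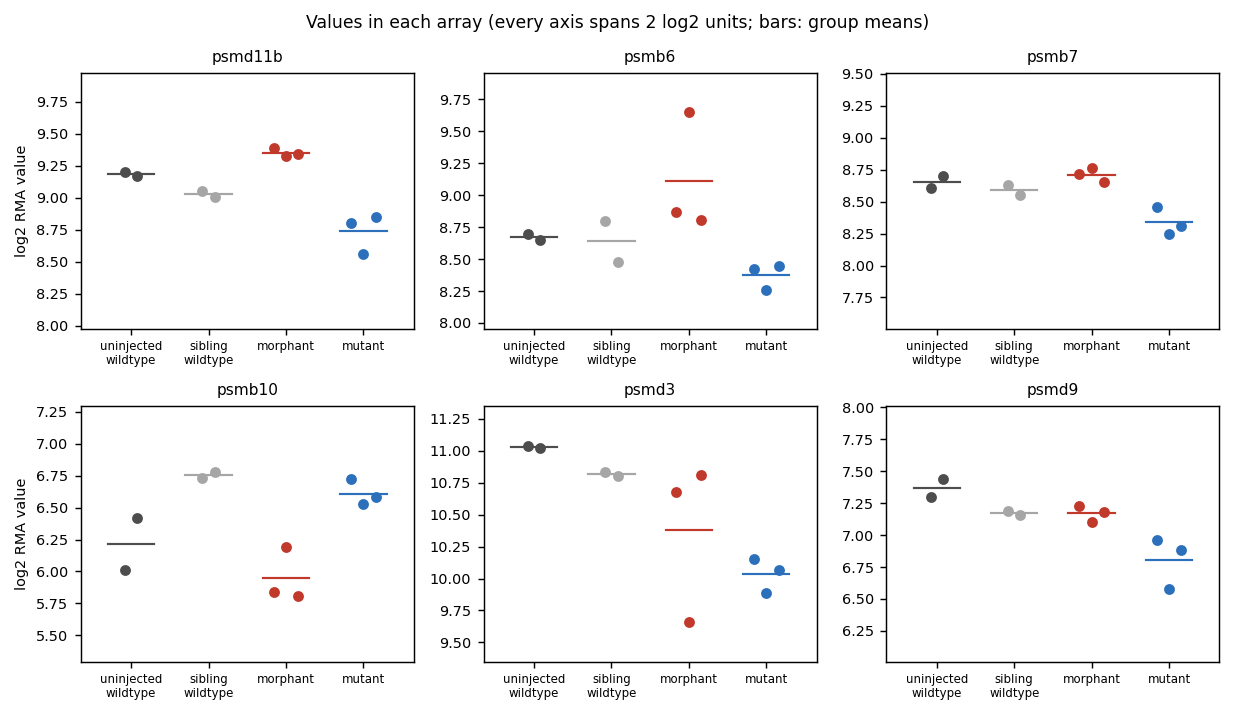
Log2 value in each array (points) and group means (bars) for *psmd11b*, *psmb6*, *psmb7*, *psmb10*, *psmd3* and *psmd9*, every axis spanning 2 log2 units. Morphants and mutants do not overlap for any of them but *psmd3*, where morphant 2 at 9.66 lies below the mutants.

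Of the 6 inducible and special beta genes, all but *psmb10* had means below the array medians or close to them and passed no test. *psmb8a*, for the inducible counterpart of *psmb5*, had 2.54 and 2.65 in uninjected wildtype, 2.37 and 2.80 in siblings, 2.52, 2.41 and 2.61 in morphants and 2.43, 2.63 and 2.40 in mutants. *psmb9a*, for the counterpart of *psmb6*, had 4.94 and 4.60 in uninjected wildtype, 4.69 and 5.15 in siblings, 4.74, 5.02 and 4.73 in morphants and 5.08, 4.92 and 4.53 in mutants. For both genes all groups overlapped. *psmb12* and *psmb13a* are further genes of the same cluster. *psmb12* had 4.13 and 4.10 in uninjected wildtype, 4.16 and 4.36 in siblings, 4.05, 4.51 and 3.99 in morphants and 4.10, 4.11 and 4.30 in mutants. *psmb13a* had 3.23 and 3.47 in uninjected wildtype, 3.67 and 3.56 in siblings, 3.62, 3.47 and 3.49 in morphants and 3.52, 3.38 and 3.49 in mutants. In both, the siblings lay above the uninjected arrays, an order whose share over all genes was not counted. Wildtype as a whole, morphants and mutants overlapped. *psmb11a*, related to the beta subunit that mammals use in the thymus, had 3.61 and 3.33 in uninjected wildtype, 3.63 and 3.60 in siblings, 3.47, 3.50 and 3.63 in morphants and 3.77, 3.56 and 3.68 in mutants. The log2 changes of these 5 genes ran from -0.14 to 0.13 over the 3 comparisons, and their confidence intervals excluded changes of 1.5-fold in array signal. How much of such a dim signal is specific to the gene was not tested, so the intervals do not exclude such a change of the transcript.

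*psmb10*, for the inducible counterpart of *psmb7*, was lower in morphants than in mutants by 1.59-fold (-0.67, SE 0.192, adjusted p = 0.045). Its values were 6.01 and 6.42 in uninjected wildtype, 6.73 and 6.78 in siblings, 5.84, 6.19 and 5.81 in morphants and 6.72, 6.53 and 6.58 in mutants. The morphants overlapped the uninjected arrays, the mutants lay just below the siblings, and the kinds of wildtype differed in the same direction as morphants and mutants. Siblings exceeded uninjected wildtype by 0.54 (unadjusted p = 0.011, adjusted p = 0.516). Against their own wildtype, morphants had a change of -0.27 (adjusted p = 0.458) and mutants one of -0.14 (adjusted p = 0.832), and the difference of these changes was -0.13 (adjusted p = 0.826). The call of *psmb10* was also lost without morphant 1, morphant 3, uninjected 2 or any 1 of the 3 mutants (adjusted p = 0.058 to 0.133). The change in morphants against wildtype was -0.54 (adjusted p = 0.128), and passed without uninjected 1 (-0.70, adjusted p = 0.030).

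**Figure D5:**
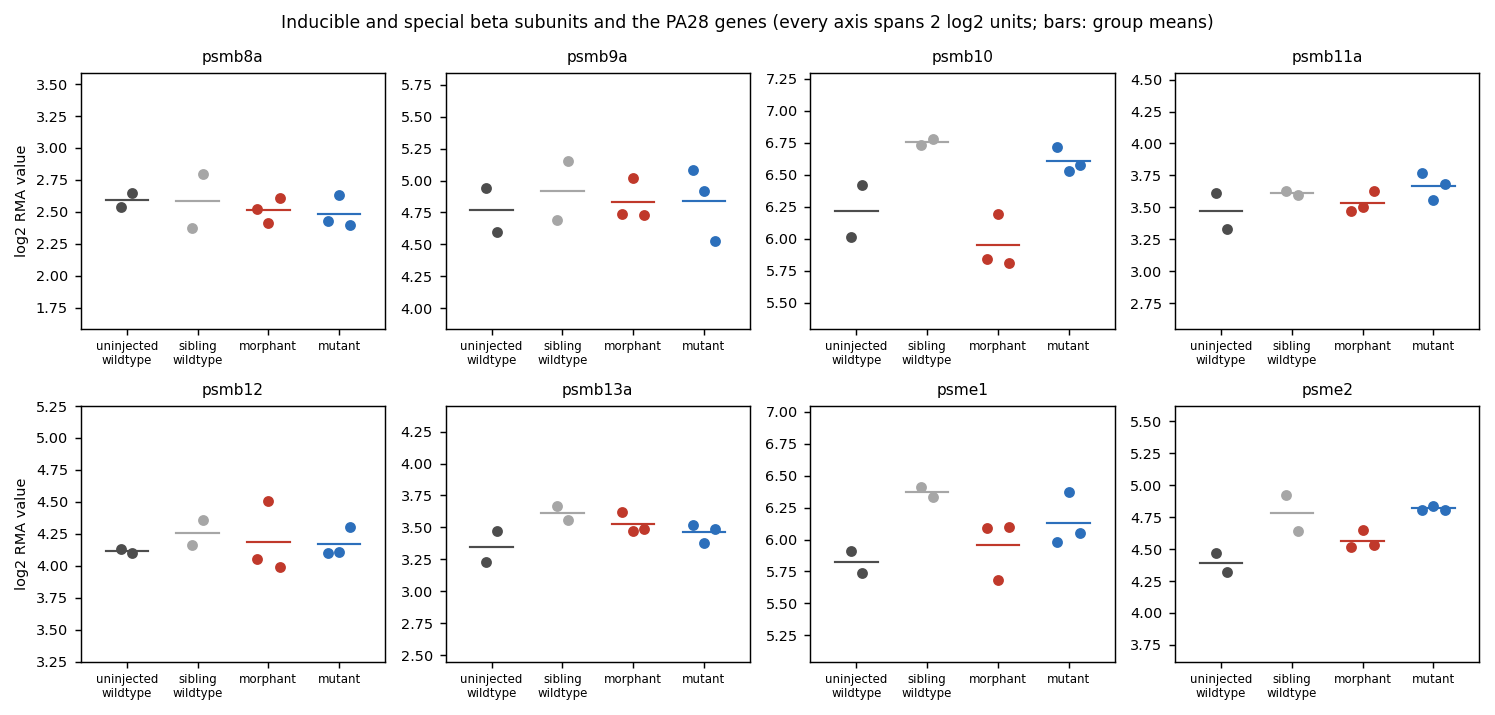
Log2 value in each array (points) and group means (bars) for the 6 inducible and special beta genes and the PA28 genes *psme1* and *psme2*, every axis spanning 2 log2 units. For *psmb10*, *psmb12*, *psmb13a*, *psme1* and *psme2* the sibling arrays lie above the uninjected arrays, and only for *psmb10* and *psme2* do morphants and mutants not overlap. How many of all genes have the siblings above the uninjected arrays was not counted.

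The PA28 genes were also higher in siblings than in uninjected wildtype. *psme1* had 5.91 and 5.74 in uninjected wildtype, 6.41 and 6.33 in siblings, 6.09, 5.68 and 6.10 in morphants and 5.98, 6.37 and 6.05 in mutants. *psme2* had 4.47 and 4.32 in uninjected wildtype, 4.92 and 4.64 in siblings, 4.52, 4.65 and 4.53 in morphants and 4.81, 4.84 and 4.81 in mutants. Siblings exceeded uninjected wildtype by 0.54 in *psme1* (unadjusted p = 0.014) and 0.38 in *psme2* (unadjusted p = 0.012), neither past the test after adjustment (adjusted p = 0.562 and 0.520). None of the 54 genes passed in this comparison, where 0.026% of genes did. An unadjusted p below 0.05 was found for 3 of the 54 (5.56%), *psmb10*, *psme1* and *psme2*, beside 5.53% of all genes. *psme2* was higher in all mutants than in all morphants (difference of morphants against mutants -0.25, adjusted p = 0.266). The kinds of wildtype differed in the same direction, with means of 4.39 in uninjected wildtype, 4.78 in siblings, 4.57 in morphants and 4.82 in mutants. With each change taken against its own wildtype, the difference was positive for all 3 activator genes (0.02 to 0.36), and none passed. *psme4b*, for the nuclear activator PA200, and *psmf1*, for the inhibitor PI31, had changes of 0.10 and -0.19 between morphants and mutants. *psmf1* was lower in all morphants (5.45, 5.51 and 5.33) than in all wildtype arrays (5.79, 5.71, 5.54 and 5.66), with an adjusted p of 0.162.

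Among the assembly chaperones, *psmg1*, whose product helps to build the alpha ring, had 6.80 and 6.78 in uninjected wildtype, 6.75 and 6.85 in siblings, 7.06, 7.52 and 6.95 in morphants and 6.81, 6.66 and 6.85 in mutants. All morphants lay above all other arrays, morphant 2 the farthest, and the changes were 0.38 against wildtype (adjusted p = 0.132) and 0.41 against mutants (adjusted p = 0.080), the latter past the test without morphant 3 (0.52, adjusted p = 0.047). Without morphant 2 they were 0.21 (adjusted p = 0.302) and 0.23 (adjusted p = 0.174). *psmg2*, *psmg3* and *psmg4* had changes between -0.17 and 0.12. *psmd5*, a chaperone of base assembly, had 7.54 and 7.69 in uninjected wildtype, 7.69 and 7.08 in siblings, 7.20, 7.11 and 7.13 in morphants and 7.69, 7.34 and 7.40 in mutants. Sibling 2 was the lowest array of all, and without it the change in morphants passed (-0.50, adjusted p = 0.044) where it did not with it (-0.36, adjusted p = 0.240).

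*psmd9*, another base chaperone, had 7.30 and 7.44 in uninjected wildtype, 7.19 and 7.16 in siblings, 7.23, 7.10 and 7.18 in morphants and 6.96, 6.58 and 6.88 in mutants. All mutants lay below all other arrays (-0.47 against wildtype, adjusted p = 0.113). *psmc3ip*, which shares only its name with the complex, had 6.47 and 6.80 in uninjected wildtype, 6.71 and 6.24 in siblings, 6.11, 6.41 and 6.31 in morphants and 6.05, 5.64 and 5.43 in mutants, a change of -0.85 in mutants against wildtype (adjusted p = 0.077). Without mutant 1 it passed (-1.02, adjusted p = 0.041), as did the difference between morphants and mutants (0.74, adjusted p = 0.027).

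Because morphants and mutants had different wildtype embryos as their nearest controls, the change of morphants against uninjected wildtype was also set against that of mutants against siblings. None of the 54 genes passed the test of this difference, where 1.27% of genes did, and 2 (3.70%) had an unadjusted p below 0.05, against 22.0% of all genes. The lowest adjusted p was 0.182 (*psmd11b*), whose changes were 0.17 in morphants against uninjected wildtype and -0.30 in mutants against siblings (difference 0.47, 95% confidence interval 0.13 to 0.80). For *psmb6* and *psmb7* the differences were 0.70 (95% confidence interval -0.04 to 1.44) and 0.31 (-0.01 to 0.63). With these separate controls, none of the 54 genes passed in morphants against uninjected wildtype (3.61% of genes did) or in mutants against siblings (0.0987% of genes did).

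Of 30 measured partner genes (transcription factors of proteasome genes, ubiquitin shuttles, deubiquitinases and chaperones), 4 were higher and 1 lower in morphants against wildtype (median 0.01), none passed in mutants against wildtype (median -0.07), and 5 were higher in morphants than in mutants (median 0.08). These are 16.7% of the list in each of the comparisons with calls, where 9.94% and 23.1% of all genes were called. The list was chosen with earlier results of these data known. *nfe2l1a*, 1 of 2 zebrafish genes for the factor that in mammals raises proteasome genes when the protease is inhibited, had 5.53 and 5.86 in uninjected wildtype, 5.49 and 4.94 in siblings, 6.57, 6.58 and 6.45 in morphants and 5.67, 5.71 and 5.93 in mutants. *nfe2l1a* rose by 2.11-fold in morphants (1.08, adjusted p = 0.0083), while its paralog *nfe2l1b* did not pass in any comparison. The rise of *nfe2l1a* was 0.838 to 1.318 on the log2 scale over 23 alternative analyses, with an adjusted p below 0.05 in 22. *nfe2l1a* was also higher in morphants than in mutants (0.76, adjusted p = 0.027), a call lost without any 1 of the morphants, mutant 1 or mutant 2. *nfe2l2b*, for a related factor of the oxidative stress response, rose by 2.91-fold (1.54, adjusted p = 0.00091), from 5.16 to 5.77 in the 4 wildtype arrays to 7.14, 7.17 and 6.70 in morphants, with 5.63, 5.33 and 5.32 in mutants. Of the partner genes it alone passed the test of the difference between the changes against own wildtype (1.97, adjusted p = 0.013).

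*faf2*, for a membrane adaptor in the degradation of endoplasmic reticulum proteins, rose by 1.46-fold in morphants (0.54, adjusted p = 0.0082), with 8.74, 8.72 and 8.72 against 8.01 to 8.31 in wildtype. *rad23ab*, for a ubiquitin shuttle, rose by 1.44-fold (0.52, adjusted p = 0.015), and lost the call without morphant 2 or morphant 3 (adjusted p = 0.060 and 0.050). *ngly1*, for the glycanase that activates the protein of *nfe2l1*, fell by 0.48 on the log2 scale (adjusted p = 0.046), with 6.30, 6.02 and 6.44 in morphants against 6.57 to 6.91 in wildtype, a call that 8 of the 10 arrays, left out in turn, removed. *ubqln4*, for another shuttle, was higher in morphants than in mutants by 1.33-fold (0.41, adjusted p = 0.0096). The core chaperone gene *pomp* had a change of -0.20 in morphants against wildtype (adjusted p = 0.252).

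Antigen presentation and interferon genes share regulation with the inducible subunits in mammals. Of 34 measured, 3 were higher in morphants against wildtype (*tap2t*, *irf9* and *isg15*), none passed in mutants against wildtype, and between morphants and mutants 1 was higher (*irf9*) and 2 lower (*b2ml* and *jak2a*). These were 8.82% of the list each time, no more than the 9.94% and 23.1% of all genes. The call of *tap2t* was lost without any array but uninjected 2, that of *isg15* without morphant 1, morphant 2, uninjected 2 or sibling 1, and that of *jak2a* without morphant 1, morphant 3 or mutant 3. *irf9* rose by 1.86-fold in morphants (0.89, adjusted p = 0.0012), with 6.66, 6.59 and 6.82 against 5.63 to 5.88 in wildtype. The interferon gamma genes *ifng1* and *ifng1r* stayed between 3.11 and 3.91 in all arrays, below the array medians. Both siblings lay above both uninjected arrays, the order seen for *psmb10*, *psme1* and *psme2*, in 7 of the 34 genes and below them in 5, and the other 22 overlapped. These orders were not counted over all genes, so the numbers cannot set the list apart from other genes.

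Of 21 leukocyte markers, which mark the cells in which inducible subunits are most used, 12 lay above the array medians. Their mean level was 5.51 to 5.79 in wildtype, 5.59 to 5.60 in morphants and 5.54 to 5.60 in mutants. In morphants against wildtype *cebpb* was higher and *lcp1* lower, none passed in mutants, and between morphants and mutants *cebpb* was higher and *lcp1* and *cd8a* were lower. The 2 and 3 calls were 9.52% and 14.3% of the list, under the shares of all genes (9.94% and 23.1%). The calls of *lcp1* and *cd8a*, and that of *cebpb* against wildtype, were each lost when single arrays were left out. The lymphocyte markers *rag1*, *rag2* and *lck* lay near or below the array medians in all arrays. The part of leukocyte number in the values of *psmb10* was not tested.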

How the data were processed

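RNA of 10 pools of whole embryos was measured on GeneChip Zebrafish Gene 1.0 ST arrays. The deposited values are log2 signals that the authors obtained by robust multi-array averaging, which includes quantile normalization. The study's methods name the oligo package in R and the submitters' processing notes name GCRMA, with no version. They were used as deposited, without a filter, for 75212 probe sets. Genes were named from probe sets with 1 symbol (20806; 855 had several, 53551 none), and 4 probe sets that join a proteasome gene with another symbol were left out. All 54 symbols are the same in RefSeq (GRCz12tu), where 5 further genes match the rule; these were not analysed here.

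limma 3.58.1 (R 4.3.3) fitted 3 group means to 10 arrays (residual degrees of freedom 7, prior 3.13), two-sided, with Benjamini-Hochberg adjustment over all probe sets. A fit with 4 means kept the wildtypes apart. The script was tested on simulated data. The number of arrays limits the precision. Full values are given for the inducible beta genes, *psme1*, *psme2* and, per comparison, the 4 largest rises and 4 largest falls. Of the 54 genes, *psma6l*, *psma8* and *psmb7* are also given in full, outside this rule. The members and lists were chosen with earlier results of these data known. Alternatives were other normalizations, filters, probe set choices, controls, tests and each array left out. Figures were drawn with matplotlib 3.10.9.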

Additional observations from a re-analysis of the deposited data

Results flagged for a closer look

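In 20 proteasome genes, the 4 wildtype arrays were searched for 1 array far from the others, which chance finds in about 1 of 20 groups. These are the proteasome genes named with their values, except *psma8* and *psmf1*, which were not searched. In *psmb11a*, uninjected 2 was at 3.33 and the other 3 at 3.60 to 3.63, a gap of 0.904 of the whole range. In *psma6l*, sibling 1 was at 5.31 and the other 3 at 5.61 to 5.64, a gap of 0.917 of the range.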

How the results depend on the processing

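In all 49 recomputations the medians moved by less than the spread between arrays (SD 0.0726). The medians themselves were only -0.02, -0.10 and 0.08, so this limit cannot show that they kept their size. With each array left out, they ranged from -0.05 to 0.010 in morphants against wildtype, -0.13 to -0.06 in mutants against wildtype and 0.041 to 0.120 in morphants against mutants, and the counts of genes past the test from 0 to 1, 0 to 1 and 1 to 4. The count in morphants against wildtype went from 0 to 1 (*psmb10*) when only probe sets with 1 symbol were tested and with siblings as the only control. In mutants against wildtype it became 1 with dim probe sets removed (*psmc3ip*), 2 with 1-symbol probe sets (*psmc3ip*, *psmd9*) and 1 with only the arrays of the 2 groups (*psmd3*). The share of all genes called was not counted under any alternative in this section, so these counts have no background beside them. In morphants against mutants, the count of 4 became 8 both without dim probe sets and with 1-symbol probe sets, where fewer probe sets were tested. It became 1 with quantile normalization repeated (*psmd11b*), 0 with the methods' 2-group ANOVA and 0 when a 2-fold change was required as well. Why the count moved was not tested. With the replicate number as a block (replicate block), the count was 2 (*psmb7*, *psmd11b*) and the other counts stayed at 0; same-numbered arrays shared only a number, with correlations of their deviations from the group means of -0.097 to 0.047. The change of *psma6l* between morphants and mutants reversed from 0.08 to -0.655 with its dimmest probe set and to -0.42 with the mean of its 3. Added after the data were seen, leaving out *psmc3ip* and *psme3ip1* left the counts at 0, 0 and 4, and counting any probe set of a gene gave 0, 0 and 5. No gene of the 54 passed the difference against own wildtype in any setting run. Of the 54 genes, 6 had a mean below the median of all probe sets. The promoter search that had been planned was not run.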
